A study of Drosophila melanogaster with 9 samples.

Results

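IM1, IM2, IM3, IM4 and CG15067 encode short secreted peptides that Drosophila releases into its blood when the Toll pathway is active, and their transcripts were followed here in larval fat body. These 5 genes of the 10372 in the table were picked by name after their levels in all 3 groups were known. All 5 were lowest in InRCA_noHS, intermediate in InRCA_HS and highest in control_HS by group mean. Their levels and fold changes are therefore a description. How many of the 5 a test called is given only beside the share of all genes called, and nothing is read from those counts or from their stability. Tests are read for other genes only.

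IM stands for immune-induced molecule. In the Toll pathway, recognition proteins in the blood sense fungi and Gram-positive bacteria and start a chain of serine proteases that cuts the ligand Spaetzle, which binds the receptor Toll. The NF-kappaB factors Dif and Dorsal then leave their inhibitor Cactus and switch on target genes, chiefly in the fat body, the larval organ that stores fat and secretes most blood proteins. IM1, IM2, IM3 and CG15067 belong to the Bomanins, a family needed in adult flies to survive infections that Toll defends against, and IM4 is a Daisho peptide, needed against certain filamentous fungi.

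RNA was sequenced from fat bodies of female mid-third instar larvae that were still feeding. Virgin hs-GAL4 females, whose GAL4 activator is made throughout the larva after heat and not in fat body alone, were mated with males of stock 8263 or stock 6598. Stock 8263 carried the UAS-InR.A1325D transgene for a constitutively active insulin receptor. Stock 6598, given as yw in the sample titles, gave the control larvae. Larvae in InRCA_HS had the transgene and 30 min at 37 °C, larvae in InRCA_noHS had the transgene and a mock move to a fresh vial at 25 °C, and larvae in control_HS had the heat and no transgene. All groups carried the hs-GAL4 driver and were collected 6 h after the heat or mock step, by shearing and centrifugation. InRCA_HS and control_HS thus differ in the male stock, InRCA_HS and InRCA_noHS differ in the heat with what it induces, and InRCA_noHS and control_HS differ in both. A control cross without heat was not analysed here.

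Each group had 3 libraries, and the labels do not say that these came from separate animals or days, so p-values measure the spread between these libraries, which may be technical. The deposited values look like read counts adjusted to a common library size, by an unnamed tool, and are called adjusted counts below. Their totals still ranged from 10625545 (InRCA_HS replicate 1) to 15514912 (control_HS replicate 3). Whole reads recovered from them summed to between 8762308 and 17601511 per library. InR had 66688, 47774 and 60402 adjusted counts in InRCA_HS, 1821, 3662 and 2128 in InRCA_noHS and 743, 785 and 826 in control_HS, so the unheated transgene larvae also lay above the control. Fat body markers (larval serum proteins, Fbp1, Fbp2 and the lipophorin gene Rfabg among 8 genes) summed to 2724660 to 3542000 in InRCA_HS, 2729260 to 4120350 in InRCA_noHS and 3625380 to 4070160 in control_HS. Every gene in the table had at least 1 read in every library, so reads of markers of other tissues are not evidence of those tissues by themselves, and their summed levels are given below.

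The table lists the 5 genes under older symbols. IM1 is now BomS1, IM2 BomS2 and IM3 BomS3, which code for short Bomanins of 45, 45 and 39 codons. CG15067 is BomBc2, a bicipital Bomanin of 154 codons with a pair of Bomanin domains. These 4 lie in a cluster of 10 Bomanin genes on chromosome arm 2R, in the order BomT1, BomBc1, BomS1, BomS4, BomBc2, BomS2, BomS3, BomT2, BomS5, BomS6, per the BDGP6 annotation, while the build named by the submitters was dm3. IM4 is Dso1, with 42 codons, and stands elsewhere on 2R beside Dso2. CG15067 lies on the minus strand and overlaps BomS4 on the plus strand. BomS4 has no row in the table, and whether strand was used in counting is not given in the sources used here, so reads of the overlap may sit in CG15067. Bomanins resemble each other in sequence, and reads shared between copies may have been split in ways that cannot be seen in the table. All 5 genes passed the filter on low values, a mean of at least 1, as did every gene in the table.

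IM3, a short Bomanin, gave the highest adjusted counts of the 5. It had 748, 895 and 2311.5 adjusted counts in the InRCA_HS libraries, 33.9, 158 and 109.7 in InRCA_noHS and 3789.6, 6136 and 2975 in control_HS. The 3 groups did not overlap, although the third InRCA_HS library came near the lowest control_HS library, which was 1.29 times as high. The means were 1318 ± 863 in InRCA_HS, 101 ± 62.6 in InRCA_noHS and 4300.3 ± 1641 in control_HS (SD, n = 3 each). In this bulk tissue, fewer cells making a transcript and less of it per cell cannot be told apart.

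IM1 had 152, 312 and 539.6 adjusted counts in InRCA_HS, 25.7, 114.98 and 46.6 in InRCA_noHS and 1999.5, 2810.1 and 1721 in control_HS. Its groups were separate, and the lowest control_HS library was 3.19 times the highest InRCA_HS library. Means were 335 ± 195 in InRCA_HS, 62.4 ± 46.7 in InRCA_noHS and 2177 ± 566 in control_HS (SD, n = 3 each). The gap between the transgene groups was narrower, with the lowest InRCA_HS library 1.33 times the highest InRCA_noHS library.

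IM2 had 189, 511 and 667 adjusted counts in InRCA_HS, 39.6, 126 and 44.0 in InRCA_noHS and 1348, 2414 and 2238 in control_HS. These groups were also separate, by factors of 2.02 between InRCA_HS and control_HS and 1.497 between InRCA_HS and InRCA_noHS at their nearest libraries. The means were 456 ± 244 in InRCA_HS, 69.9 ± 48.8 in InRCA_noHS and 2000.1 ± 572 in control_HS (SD, n = 3 each).

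CG15067, the bicipital Bomanin, had 42.1, 153 and 137 adjusted counts in InRCA_HS, 2.33, 14.3 and 4.87 in InRCA_noHS and 979, 827 and 528 in control_HS. Its groups were separate, and its highest library was 421 times its lowest, the widest span among the 5 genes. The means were 111 ± 59.8 in InRCA_HS, 7.17 ± 6.32 in InRCA_noHS and 778 ± 229 in control_HS (SD, n = 3 each). Only 1, 14 and 6 reads stood behind the InRCA_noHS values, and 1 read has an exact 95% Poisson interval of 0.0253 to 5.57, which covers counting error only.

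IM4, the Daisho peptide, had 16.9, 122 and 175 adjusted counts in InRCA_HS, 2.30, 15.3 and 3.13 in InRCA_noHS and 422, 333.2 and 127 in control_HS. Here InRCA_HS and control_HS overlapped, since the third InRCA_HS library lay above the third control_HS library. The first InRCA_HS library, with 16.9, lay close to the highest InRCA_noHS library, with 15.3. Means were 105 ± 80.3 in InRCA_HS, 6.92 ± 7.30 in InRCA_noHS and 294 ± 151 in control_HS (SD, n = 3 each), and the InRCA_noHS values rest on 1, 15 and 4 reads.

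**Figure D1:**
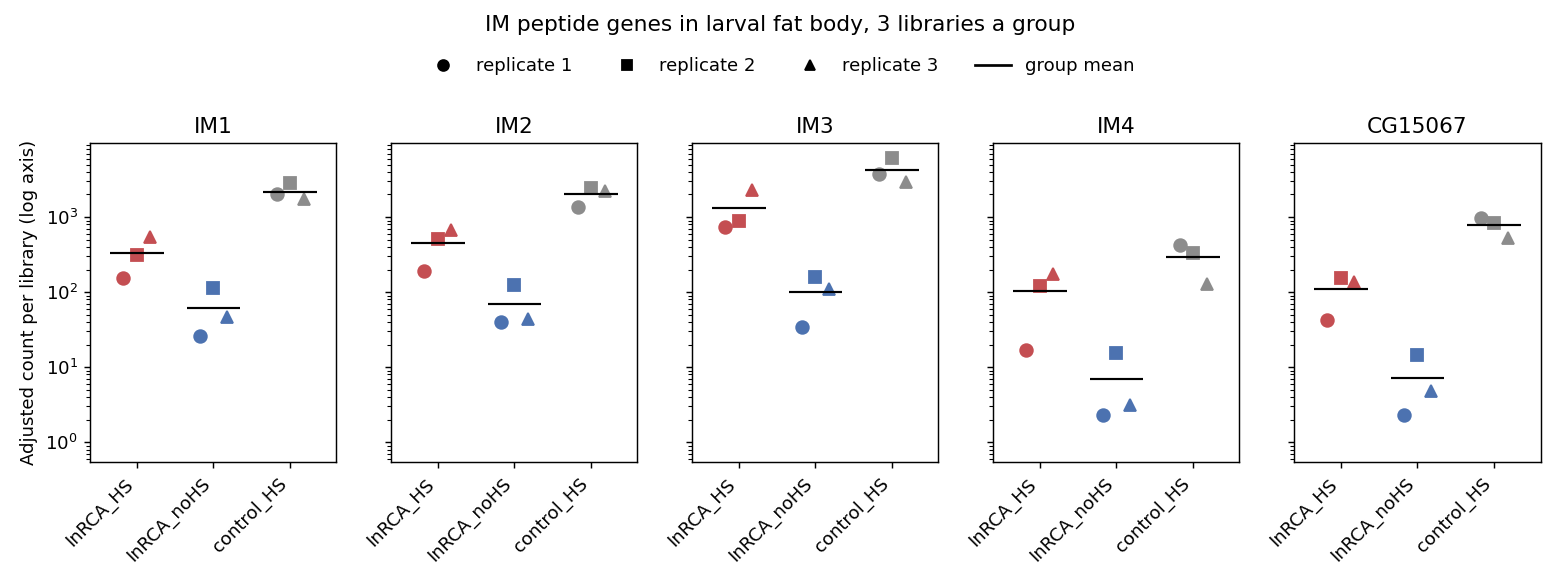
Adjusted counts of the 5 IM peptide genes on a log axis, with a panel for each gene, a column for each group, a symbol for each library and a bar at the mean of 3 libraries. All InRCA_noHS libraries lie lowest in every panel, and only in the IM4 panel does an InRCA_HS library (175) lie above a control_HS library (127).

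The order of the groups was InRCA_noHS below InRCA_HS below control_HS by means for 5 of 5 genes, a pattern shown by 12.5% of all genes in the table. With no overlap between neighbouring groups it held for 4 of 5 (IM1, IM2, IM3 and CG15067), against 0.453% of all genes (47 genes). IM4 was the exception through its InRCA_HS and control_HS libraries. The genes were chosen with these levels known, so nothing is read from that contrast.

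Compared per kb of annotated exon, so that genes of different length can be set side by side, the levels fell into 2 tiers. In control_HS, IM1, IM3 and IM2 had 6029.7 ± 1568, 5592 ± 2134 and 5449.8 ± 1558 adjusted counts per kb (SD, n = 3), which differed by less than the spread between libraries. CG15067 had 1095 ± 323 and IM4 383 ± 197 per kb in control_HS. In InRCA_HS the order per kb was IM3 at 1714 ± 1123, IM2 at 1242 ± 664, IM1 at 927 ± 539, CG15067 at 155 ± 84.1 and IM4 at 136 ± 105. In InRCA_noHS the levels per kb were 191 ± 133 for IM2, 173 ± 129 for IM1, 131 ± 81.4 for IM3, 10.1 ± 8.89 for CG15067 and 9.03 ± 9.51 for IM4. Within each tier the SDs overlapped in InRCA_HS and in InRCA_noHS. The exon lengths come from the newer annotation and count all annotated transcripts of a gene. They were 361 and 367 bases for IM1 and IM2, with 1 transcript each. For IM3, IM4 and CG15067 they were 769, 767 and 711 bases, with 2 transcripts each. The levels per kb of the latter genes depend on which transcripts were made, which was not tested.

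InRCA_HS was set against control_HS to compare larvae with and without the active insulin receptor after the same heat. On the scale of log2(adjusted count + 1), CG15067 was lower in InRCA_HS by -2.96 (SE 0.58), IM1 by -2.85 (SE 0.53), IM2 by -2.27 (SE 0.51), IM4 by -1.85 (SE 0.85) and IM3 by -1.83 (SE 0.55). These correspond to levels 7.78-fold, 7.20-fold, 4.82-fold, 3.60-fold and 3.55-fold lower. The median over the 5 was -2.27, against 0.00 over all 10372 genes. By limma with Benjamini-Hochberg adjustment over all genes, adjusted p under 0.05, 3 of 5 were called lower (IM1, IM2 and CG15067), beside 1.32% of all genes called lower and 1.11% called higher. The genes were chosen on the same contrast, so nothing is read from this count. In 4 of 5 genes all 3 InRCA_HS libraries lay below all 3 control_HS libraries, as in 11% of all genes.

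The count of called IM genes in that comparison depended on single libraries. It was 0 without InRCA_HS replicate 1, InRCA_HS replicate 2, control_HS replicate 2 or control_HS replicate 3, 1 without InRCA_noHS replicate 3, 2 without InRCA_noHS replicate 1, 4 without InRCA_HS replicate 3, and 3 in the fits without either other library. The fold itself kept its direction in all 9 fits that left out a library. For IM4 it ranged widest, from 1.79-fold lower without InRCA_HS replicate 1 to 5.59-fold lower without InRCA_HS replicate 3. IM1 ranged from 5.18-fold to 9.72-fold lower, CG15067 from 5.18-fold (without InRCA_HS replicate 1) to 9.79-fold, IM2 from 3.32-fold to 6.22-fold and IM3 from 2.85-fold to 5.01-fold.

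InRCA_HS was set against InRCA_noHS to compare heated with unheated larvae of the transgene cross. CG15067 was higher in InRCA_HS by 3.86 (SE 0.58) on the log2 scale, IM3 by 3.77 (SE 0.55), IM4 by 3.59 (SE 0.85), IM2 by 2.71 (SE 0.51) and IM1 by 2.49 (SE 0.53). These are 14.5-fold, 13.6-fold, 12.02-fold, 6.542-fold and 5.61-fold higher levels. The median over the 5 was 3.59, and over all genes it was -0.14. The same test called 4 of 5 higher (all except IM4), beside 1.75% of all genes called higher and 0.8% called lower, and nothing is read from this count either. In 5 of 5 genes the InRCA_HS libraries all lay above the InRCA_noHS libraries, as in 7.52% of all genes. Without single libraries the number called was 2 to 5, with 2 without InRCA_HS replicate 2, InRCA_HS replicate 3, InRCA_noHS replicate 1 or InRCA_noHS replicate 3. IM4 again moved most, from 7.75-fold higher without InRCA_HS replicate 3 to 24.3-fold higher without InRCA_HS replicate 1. IM3 was 8.72-fold higher without InRCA_noHS replicate 1, and CG15067 was 21.9-fold higher without InRCA_noHS replicate 2.

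InRCA_noHS against control_HS, which differ in both heat and male stock, gave the widest separation. CG15067 was lower in InRCA_noHS by -6.82 (SE 0.58) on the log2 scale, IM3 by -5.59 (SE 0.55), IM4 by -5.44 (SE 0.85), IM1 by -5.34 (SE 0.53) and IM2 by -4.98 (SE 0.51). The levels were 113-fold lower for CG15067, 48.3-fold for IM3, 43.3-fold for IM4, 40.4-fold for IM1 and 31.5-fold for IM2. These were the 5 lowest log2 fold changes among all 10372 genes. The test called 5 of 5 lower, beside 3.78% of all genes called lower and 3.25% called higher, and nothing is read from this, since the genes were chosen with this contrast known. In 5 of 5 genes all InRCA_noHS libraries lay below all control_HS libraries, as in 10.4% of all genes. The median over the 5 was -5.44, against 0.12 over all genes. The value for CG15067 rests on few reads, and it was -7.08 with a pseudocount of 0.1 and -6.08 with a pseudocount of 5. For IM4 the corresponding values were -5.73 and -4.65. Without InRCA_noHS replicate 2, where both had the most reads in that group, CG15067 was 171-fold and IM4 71.1-fold lower. The 3 comparisons share libraries by pairs, so their values for a gene are not independent of each other.

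**Figure D2:**
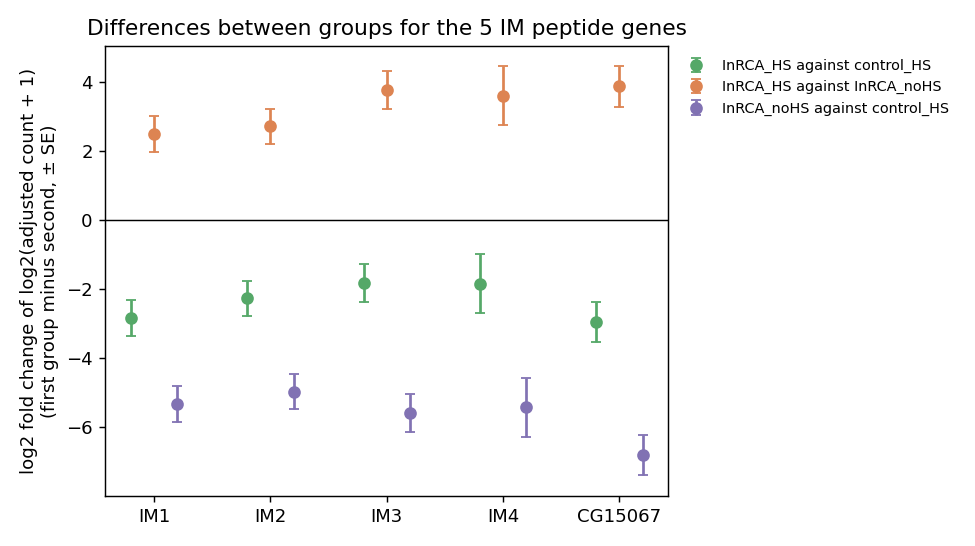
Log2 fold changes of the 5 IM peptide genes in the 3 comparisons (first group minus second, points with SE bars, on log2(adjusted count + 1)). All points for InRCA_HS against InRCA_noHS lie above 0, from 2.49 to 3.86, and all points of the comparisons with control_HS lie below 0, down to -6.82 for CG15067.

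Within groups, the 5 genes moved together from library to library. In InRCA_HS, replicate 1 was lowest for 5 of 5 genes, by a mean of -1.17 on the log2 scale relative to the group, and replicate 3 was highest for all except CG15067, which was highest in replicate 2. In InRCA_noHS, replicate 1 was lowest and replicate 2 highest for 5 of 5, at mean deviations of -0.95 and 1.14. That first InRCA_noHS library was also the shallowest, with 8762308 reads, and the part of depth in its low values was not tested. In control_HS the order differed between genes, with replicate 2 highest for IM1, IM2 and IM3 and replicate 1 highest for IM4 and CG15067. Over the 9 libraries, after each group was centred on its own mean, Pearson's r between pairs of the 5 genes ranged from 0.69 to 0.95, with a median of 0.85 over 10 pairs. The libraries share depth and the adjustment of the deposited values, and the correlation is given without a test.

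The spread within InRCA_HS was uneven across the genes. IM4 spanned 10.3 times between its lowest and highest InRCA_HS library, against 3.09 to 3.63 times for the other genes. In control_HS the span was 3.31 times for IM4 and 1.63 to 2.06 times for the other genes. In InRCA_noHS it was 6.66 times for IM4, 6.15 times for CG15067 and 3.19 to 4.66 times for IM1, IM2 and IM3. The 3 control_HS libraries thus lay closer together than those of the other groups for each of the 5 genes.

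The summed adjusted count of the 5 genes averaged 2324 ± 1371 in InRCA_HS, 247 ± 166 in InRCA_noHS and 9549 ± 2616 in control_HS (SD, n = 3 each). This was 0.0108% to 0.0315% of a library's adjusted counts in InRCA_HS, 0.000747% to 0.00365% in InRCA_noHS and 0.0489% to 0.0901% in control_HS. The make-up of the sum varied less than its size. IM3 gave 44.9% to 65.1% of it in InRCA_HS, 32.7% to 52.7% in InRCA_noHS and 39.2% to 49.0% in control_HS, so its share overlapped between groups. IM1 gave 13.3% to 15.7% in InRCA_HS, 22.4% to 26.8% in InRCA_noHS and 22.4% to 23.4% in control_HS, and the InRCA_HS libraries lay below all others in this share. IM2 gave 16.5% to 25.6% in InRCA_HS, 21.1% to 38.1% in InRCA_noHS and 15.8% to 29.5% in control_HS. CG15067 gave 3.58% to 7.65% in InRCA_HS, 2.24% to 3.34% in InRCA_noHS and 6.60% to 11.5% in control_HS, and IM4 gave 1.47% to 6.13%, 1.51% to 3.57% and 1.68% to 4.94% in the same groups.

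**Figure D3:**
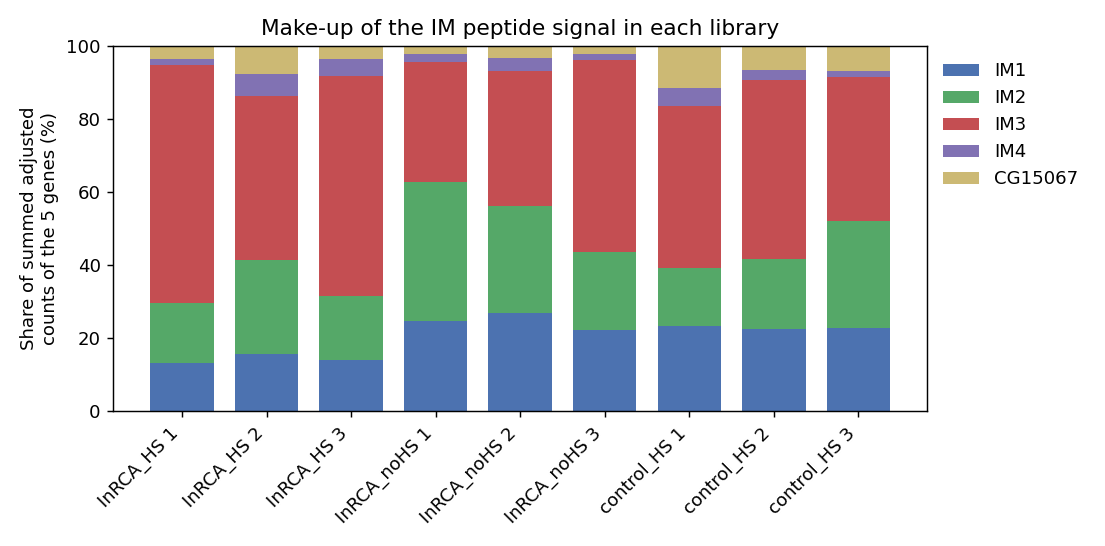
Share of each IM peptide gene in the summed adjusted counts of the 5 genes (%, stacked bars, a bar for each of the 9 libraries). IM3 holds the largest share in every library except the first InRCA_noHS library, where IM2 does (38.1%), and IM1 holds 13.3% to 15.7% in InRCA_HS against 22.4% to 26.8% in the other libraries.

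Of the cluster's other members, CG16836 (now BomT2, a tailed Bomanin) and CG15068 (BomS6) were in the table. CG16836 had 52.9, 147 and 289 adjusted counts in InRCA_HS, 25.9, 45.2 and 22.3 in InRCA_noHS and 197, 301 and 431 in control_HS. It fell in InRCA_noHS against control_HS, at -3.27 (SE 0.53; limma adjusted p = 0.00639), in all 9 fits without a library. CG15068 had 5.33, 18.8 and 83.8 in InRCA_HS, 1.88, 4.10 and 3.34 in InRCA_noHS and 17.4, 71.9 and 111 in control_HS. It also fell in InRCA_noHS, at -3.73 (SE 0.87; adjusted p = 0.0302), but the call was lost in 5 of 9 fits without a library, where adjusted p reached 0.12 without control_HS replicate 2, and without the intensity trend (adjusted p = 0.0598). For InRCA_HS neither passed the test against control_HS (adjusted p = 0.280 for CG16836 and 0.491 for CG15068) or against InRCA_noHS (adjusted p = 0.0745 and 0.210).

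The remaining genes of the IM list, IM10 and CG16712 (IM33), were not called in any comparison. IM10 had 8.66 ± 5.65 adjusted counts in InRCA_HS, 2.45 ± 0.65 in InRCA_noHS and 12.9 ± 6.42 in control_HS (SD, n = 3 each), on 1 to 3 reads in each InRCA_noHS library. CG16712 was abundant, with 1312 ± 519 in InRCA_HS, 1589 ± 312 in InRCA_noHS and 3968 ± 1957 in control_HS, and its order of group means, with InRCA_HS lowest, differed from that of the 5 genes. In all, 0 of the 4 genes of this list rose or fell in InRCA_HS against control_HS, 0 in InRCA_HS against InRCA_noHS, and 2 fell in InRCA_noHS against control_HS. Over all genes, 1.11% rose and 1.32% fell in the first comparison, 1.75% and 0.8% in the second, and 3.25% and 3.78% in the third. The list medians were -1.22, 1.70 and -2.58, beside 0.00, -0.14 and 0.12 over all genes. The same shares and medians apply to the lists that follow.

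Upstream of Toll, 13 recognition and protease genes were in the table. SPE, the protease that cuts Spaetzle, had 264, 229.9 and 322 adjusted counts in InRCA_HS, 181, 125 and 97.6 in InRCA_noHS and 738, 1146 and 1028 in control_HS. It fell in InRCA_HS (-1.82, SE 0.25; adjusted p = 0.00613) and in InRCA_noHS (-2.86, SE 0.25; adjusted p = 0.000218) against control_HS, in all 9 fits without a library both times. The difference between InRCA_HS and InRCA_noHS did not pass (1.04, SE 0.25; adjusted p = 0.0597). The group order of SPE was that of the IM genes.

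The protease grass, which acts upstream of SPE, had 2141, 2600.2 and 2623 adjusted counts in InRCA_HS, 813, 631 and 809.98 in InRCA_noHS and 1768, 3019 and 2416 in control_HS. All InRCA_noHS libraries lay below those of the other groups. The gene rose in InRCA_HS against InRCA_noHS (1.71, SE 0.21; adjusted p = 0.00206) and fell in InRCA_noHS against control_HS (-1.65, SE 0.21; adjusted p = 0.00149). Both calls held in all 9 fits without a library. The apical protease gene modSP fell in InRCA_HS against InRCA_noHS (-0.78, SE 0.18; adjusted p = 0.0485), a call lost in 7 of 9 fits without a library (adjusted p up to 0.217, without InRCA_noHS replicate 3) and in 5 of 10 other settings (adjusted p up to 0.115), which varied the pseudocount, filter, scaling, trend, libraries fitted, block and test. The ligand gene spz (1.25, SE 0.33; adjusted p = 0.0722) and the recognition gene GNBP1 (-1.09, SE 0.31; adjusted p = 0.0926) did not pass for InRCA_HS against control_HS. Of the 13 genes, 0 rose and 1 fell in InRCA_HS against control_HS, 1 rose and 1 fell against InRCA_noHS, and 0 rose and 2 fell in InRCA_noHS against control_HS. Over all genes 1.32%, 0.8% and 3.78% fell in these comparisons. The list medians were -0.26, -0.01 and -0.20, beside 0.00, -0.14 and 0.12 over all genes.

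Among 10 genes between the receptor and the NF-kappaB factors, those that changed were Dif and Toll itself. Dif, an NF-kappaB factor of the Toll pathway beside Dorsal, had 152 ± 41.9 adjusted counts in InRCA_HS, 166 ± 32.4 in InRCA_noHS and 295 ± 16.6 in control_HS (SD, n = 3 each). It fell against control_HS in InRCA_HS (-0.99, SE 0.22; adjusted p = 0.0423) and in InRCA_noHS (-0.84, SE 0.22; adjusted p = 0.0433). The first call was lost in 7 and the second in 5 of 9 fits without a library, with adjusted p up to 0.154 without control_HS replicate 3 and 0.145 without InRCA_noHS replicate 2. Of 10 other settings, 2 also ended the first call (adjusted p up to 0.0935) and 1 the second (0.0720). The receptor gene Tl fell in InRCA_noHS against control_HS (-1.04, SE 0.20; adjusted p = 0.0127; lost in 3 of 9 fits, highest adjusted p = 0.0620 without InRCA_noHS replicate 3). The gene of Dorsal, dl, was not called. Its adjusted counts were 389, 379 and 511 in InRCA_HS, 517, 486 and 467 in InRCA_noHS and 441, 480 and 506 in control_HS. The inhibitor gene cact had 904 ± 50.2 adjusted counts in InRCA_HS, 963 ± 140 in InRCA_noHS and 930.1 ± 177 in control_HS. Against InRCA_noHS, 0 of 10 genes were called in InRCA_HS, and the list medians were -0.05, -0.10 and 0.03. Against control_HS, 1 of 10 fell in InRCA_HS and 2 of 10 in InRCA_noHS, beside 1.32% and 3.78% of all genes.

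Mtk encodes metchnikowin, an antifungal peptide and Toll target outside the Bomanin family. It had 298, 1311 and 1393 adjusted counts in InRCA_HS, 55.5, 92.5 and 134 in InRCA_noHS and 2489, 1656 and 2385 in control_HS. The groups did not overlap, and the first InRCA_HS library was lowest of its group, as for the IM genes. Mtk rose in InRCA_HS against InRCA_noHS (3.20, SE 0.52; adjusted p = 0.0101) and fell in InRCA_noHS against control_HS (-4.59, SE 0.52; adjusted p = 0.000981), both in all 9 fits without a library. Against control_HS the InRCA_HS level was -1.39 (SE 0.52; adjusted p = 0.188). Drs, which encodes the antifungal peptide drosomycin, had 8483 ± 4080 adjusted counts in InRCA_HS, 6687 ± 1389 in InRCA_noHS and 16084 ± 2817 in control_HS. It fell in InRCA_noHS against control_HS (-1.27, SE 0.33; adjusted p = 0.0424), a call lost in 7 of 9 fits without a library (adjusted p up to 0.160, without control_HS replicate 2) and in 3 of 10 other settings (up to 0.0954). The other comparisons of Drs did not pass (adjusted p = 0.1203 for InRCA_HS against control_HS and 0.774 against InRCA_noHS).

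The Imd pathway answers mainly Gram-negative bacteria through the factor Relish. Of 10 antimicrobial peptide genes driven chiefly by it, 4 fell in InRCA_HS against control_HS, 0 were called in InRCA_HS against InRCA_noHS, and 5 fell in InRCA_noHS against control_HS. Over all genes 1.32% fell in the first of these comparisons and 3.78% in the third. The list medians were -1.82, 0.68 and -2.31, beside 0.00, -0.14 and 0.12 over all genes. In InRCA_HS against control_HS the diptericin genes Dpt (-2.60, SE 0.44; adjusted p = 0.0172) and DptB (-2.50, SE 0.53; adjusted p = 0.0391) and the attacin genes AttB (-3.25, SE 0.67; adjusted p = 0.0362) and AttC (-1.76, SE 0.35; adjusted p = 0.0308) fell. All 4 calls depended on single libraries, being lost in 3, 6, 7 and 7 of 9 fits without a library, with adjusted p up to 0.0708, 0.140, 0.149 and 0.131. Of 10 other settings, 2, 3, 3 and 2 ended these calls (adjusted p up to 0.0646, 0.0829, 0.0961 and 0.0914). In InRCA_noHS against control_HS, DptB (-3.80; adjusted p = 0.00304), AttC (-2.24; adjusted p = 0.00516) and Dpt (-2.48; adjusted p = 0.00908) fell in all 9 fits. The cecropin gene CecC (-3.60; adjusted p = 0.0138) and the drosocin gene Dro (-2.38; adjusted p = 0.0289) fell too, with calls lost in 3 and 5 of 9 fits (adjusted p up to 0.0634 and 0.0947). The call of Dro was lost without the intensity trend as well (adjusted p = 0.0591).

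Dpt had 325 ± 236 adjusted counts in InRCA_HS and 297 ± 70.2 in InRCA_noHS, against 1653 ± 338 in control_HS. The means of the transgene groups thus lay within an SD of each other for this gene. AttC had 1303 ± 379 in InRCA_HS, 916 ± 123 in InRCA_noHS and 4748 ± 2243 in control_HS. In 3 of the 10 genes, AttC among them, all InRCA_HS libraries lay above all InRCA_noHS libraries, as in 7.52% of all genes. By log2 fold change in this comparison, 7 of the 10 lay above 0 and 3 below 0, beside 3463 and 6909 of all 10372 genes. AttB was among those below 0, with 261 ± 290 in InRCA_HS and 450 ± 105 in InRCA_noHS. Neither Dpt nor AttC passed between InRCA_HS and InRCA_noHS, and the difference between the peptide families was not tested. Attacin and cecropin genes have close copies, so reads may have been split between them.

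Of 14 Imd pathway components and regulators, 0 were called in InRCA_HS against control_HS. PGRP-SC2, an amidase that breaks down peptidoglycan, had 1464, 2009 and 4418 adjusted counts in InRCA_HS, 43.1, 123 and 111 in InRCA_noHS and 869.8, 2248 and 825 in control_HS. It rose in InRCA_HS against InRCA_noHS (4.79, SE 0.51; adjusted p = 0.000878) and fell in InRCA_noHS against control_HS (-3.79, SE 0.51; adjusted p = 0.00255), in all 9 fits without a library. The Imd inhibitor gene pirk rose in InRCA_noHS against control_HS (1.28, SE 0.24; adjusted p = 0.0119), a call lost without InRCA_noHS replicate 3 (adjusted p = 0.0561). Thus 1 of 14 rose against InRCA_noHS in InRCA_HS, and 1 rose and 1 fell in InRCA_noHS against control_HS, beside 1.75%, 3.25% and 3.78% of all genes. The list medians were -0.02, 0.01 and 0.07.

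**Figure D4:**
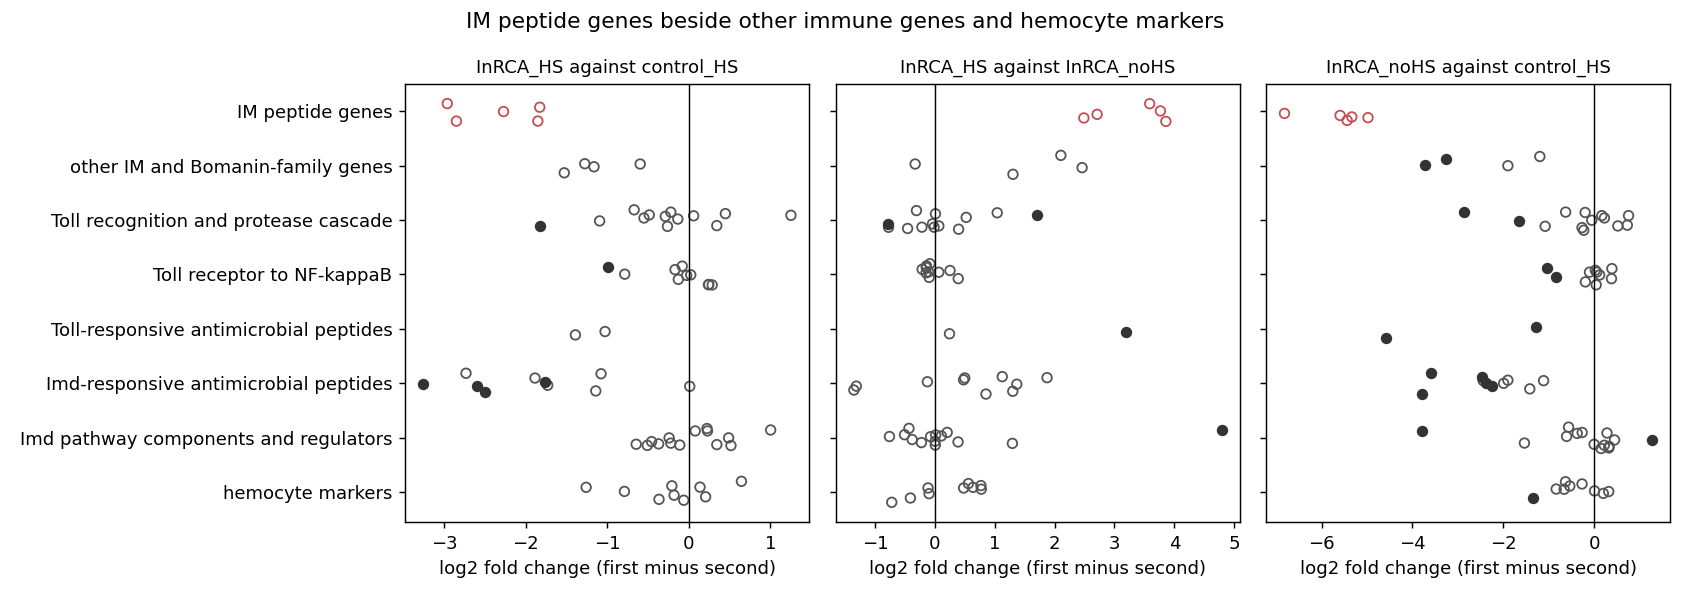
Log2 fold changes of the 5 IM peptide genes (red, given without a test) and of 7 lists of immune genes and hemocyte markers, with a panel for each comparison and a point for each gene. Filled points passed the limma test at an adjusted p under 0.05. In InRCA_noHS against control_HS the IM peptide genes lie between -6.82 and -4.98, below every gene of the other lists, the nearest being Mtk at -4.59.

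Blood cells also make immune peptides, and hemocyte markers were set beside the IM genes. Their 9 genes summed to 5593 to 8795 adjusted counts in InRCA_HS, 5669 to 6691 in InRCA_noHS and 6113 to 9261 in control_HS, ranges that overlap between all groups. Of these, 1 marker gene was called, nimC1, a receptor of plasmatocytes, which fell in InRCA_noHS against control_HS (-1.35, SE 0.33; adjusted p = 0.0365), a call lost in 6 of 9 fits without a library (adjusted p up to 0.141, without control_HS replicate 2) and in 2 of 10 other settings (up to 0.0734). Hml, hemolectin, had 1973 ± 764 in InRCA_HS, 1112 ± 217 in InRCA_noHS and 2054 ± 742 in control_HS, and was not called. For 3 of the 9 markers (nimC1, Hml and Pxn) all InRCA_noHS libraries lay below all control_HS libraries, as in 10.4% of all genes. The list medians were -0.18 and 0.48 for InRCA_HS against control_HS and InRCA_noHS, and -0.54 for InRCA_noHS against control_HS. Over all genes they were 0.00, -0.14 and 0.12. The part of hemocytes in the IM levels was not tested.

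Some markers of other tissues differed between groups. Against control_HS, salivary gland markers had a median log2 fold change of 1.67 in InRCA_HS (8 of 8 genes above 0) and 1.38 in InRCA_noHS (6 of 8). Muscle markers had medians of -0.32 and -0.63 in the same comparisons, with 11 of 13 genes below 0 in each. Fat body markers had medians of -0.48 and -0.45 there, with 6 of 8 genes below 0 in each. Over all genes the medians were 0.00 and 0.12. Of all 10372 genes, 5202 and 6314 lay above 0 in these comparisons, and 5170 and 4058 lay below 0. Salivary gland markers summed to 58641 to 180823 adjusted counts in InRCA_HS, 33572 to 105395 in InRCA_noHS and 14526 to 40606 in control_HS. The glue gene Sgs5 was called there, rising in InRCA_HS (4.18, SE 0.40; adjusted p = 0.000706) and in InRCA_noHS (3.29, SE 0.40; adjusted p = 0.00134) against control_HS. Among fat body markers, Fbp2 rose in InRCA_HS (3.98, SE 0.32; adjusted p = 0.000167) and in InRCA_noHS (4.38, SE 0.32; adjusted p = 6.19e-05) against control_HS, and 0 of the other 7 were called. Muscle markers summed to 32562 to 37257 in InRCA_HS, 24673 to 38985 in InRCA_noHS and 37899.8 to 75296 in control_HS, with Mlc2 falling in InRCA_noHS against control_HS (-1.23, SE 0.29; adjusted p = 0.0313; lost in 4 of 9 fits, up to adjusted p = 0.123 without control_HS replicate 2, and in 2 of 10 other settings, up to 0.0671). Gut markers summed to 10377 to 35072 in InRCA_HS, 11863 to 27523 in InRCA_noHS and 16926 to 18409 in control_HS, with 0 of 12 called in any comparison. Their part in the IM levels was not tested.

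The genes most like the 5 in pattern were ranked by Pearson's r over the 9 libraries with the mean of the 5 genes' centred log2 values. Mtk came first, with r of 0.96. Next were Gp93 (0.96), an endoplasmic reticulum chaperone, and loj (0.95), a protein of early secretory vesicles. The Bomanin CG16836 (0.95), CG9240 (0.95) and Gfat2 (0.94), an enzyme at the entry of the hexosamine pathway, followed. CG10420 (0.94; now Sil1), the noncoding transcript alphagamma-element:CR32865 (0.94), known to respond to heat, CG31915 (0.94) and CG6553 (0.93) completed the 10. Of 10367 genes compared, 46 reached an r of 0.9. The ranking depended on its measure. By Spearman's rho, 12 genes reached the tenth highest value or tied with it, and 2 of the 10 above were among them (Gp93 and alphagamma-element:CR32865). The groups differ in their levels and the libraries share depth and adjustment, so these values only describe the pattern.

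Their levels show how far the likeness goes. Gp93 had 14426 ± 3023 adjusted counts in InRCA_HS, 4691 ± 279 in InRCA_noHS and 28309 ± 11326 in control_HS (SD, n = 3 each), with no overlap between groups. Gfat2 had 2238 ± 287 in InRCA_HS, 1057 ± 152 in InRCA_noHS and 4364 ± 1821 in control_HS. CG10420 had 266 ± 113 in InRCA_HS, 49.2 ± 1.53 in InRCA_noHS and 829 ± 624 in control_HS. These share the group order of the IM genes, over a smaller range: in InRCA_noHS against control_HS their log2 fold changes were -2.52 for Gp93, -1.98 for Gfat2 and -3.78 for CG10420. For CG9240 the same value was -0.35, with 227 ± 13.1 in InRCA_HS, 188 ± 10.5 in InRCA_noHS and 241 ± 11.6 in control_HS, since r does not depend on the size of a change.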

How the data were processed

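RNA-seq was read from 9 libraries, 3 per group, with groups taken from the sample titles. The deposited table holds a signal per gene and library, which by its values appears to be adjusted to a common library size. The tool of that adjustment is not named in the labels. Neither the counting tool nor the annotation, nor whether strand was used, is stated in the sources. Per the submitters' processing notes, dm3 was the build and the tools were Cufflinks 1.1.0, Bowtie 0.12.7 and TopHat 1.3.2, whose roles are not given. Undoing the adjustment with a dispersion of 0.0685 gave whole reads, to within 0.1, for 99.5% of 38615 values up to 100. Every gene had at least 1 read in every library, so silent genes are not seen. No column of another sample was present.

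The log2 of each adjusted count plus 1 was fitted by limma 3.58.1 (R 4.3.3), in 1 fit of 9 libraries with an intensity trend and Benjamini-Hochberg adjustment over 10372 genes (threshold 0.05). The scale understates changes of low genes. The 5 genes, the lists and the tests were chosen with earlier results of these data known. Named were the 5 genes, all genes of the other IM list, the 10 most alike in pattern, and InR. From each other list and comparison, up to 3 genes with the smallest p were eligible, fewer being printed. DptB in InRCA_HS against control_HS, and CecC and Dro in InRCA_noHS against control_HS, were added after their values were seen. The inhibitor gene cact was printed outside this rule. edgeR 4.0.16 on the recovered reads was an added alternative. Intervals for reads are exact at 95%. Recovery and fits were also run on simulated data with a single dispersion and size factors taken from the recovery. That run checks the code and not the stability of calls in these libraries. Figures used matplotlib 3.10.9 in Python 3.11.15.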

Additional observations from a re-analysis of the deposited data

How the results depend on the processing

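Counts of calls were less stable than the directions of the IM genes. The test over all genes called 252 genes in InRCA_HS against control_HS, 265 in InRCA_HS against InRCA_noHS and 729 in InRCA_noHS against control_HS. Without the intensity trend these became 90, 145 and 446, with 0, 2 and 5 IM genes called in place of 3, 4 and 5. With only the 6 libraries compared, InRCA_HS against control_HS gave 56. Leaving out each library gave 56 to 961 genes and 0 to 4 IM genes for InRCA_HS against control_HS, 106 to 336 and 2 to 5 for InRCA_HS against InRCA_noHS, and 267 to 1421 for InRCA_noHS against control_HS, where IM genes stayed at 5. The highest counts came without control_HS replicate 1. The cause was not tested. Where an arm kept 2 libraries its spread was shared with the other groups.

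With the replicate number as a block the counts were 186, 186 and 551, and the IM genes called stayed at 3, 4 and 5. Deviations of same-numbered libraries of different groups correlated at -0.25 to 0.12, and those of differently numbered libraries at -0.24 to 0.29. These values cannot show whether same-numbered libraries shared an origin, which the labels do not state. edgeR on recovered reads, added after the data were seen, called 280 genes in InRCA_HS against control_HS, 288 in InRCA_HS against InRCA_noHS and 763 in InRCA_noHS against control_HS, with 3, 5 and 5 IM genes. The split of higher against lower calls moved with scaling: 182 against 83 in InRCA_HS against InRCA_noHS became 244 against 56 by median of ratios, 256 against 85 by quantiles and 235 against 53 by edgeR. For InRCA_noHS against control_HS, 337 against 392 became 222 against 524, 271 against 494 and 207 against 556. Median-of-ratios scaling took the median log2 fold change of all genes to -0.02 in the first of these (from -0.14) and to 0.01 in the second (from 0.12). Of 285 alternative values for the IM genes, 249 kept direction and call, 31 lost and 5 gained a call, and 0 reversed a called direction. For other list genes 1789 of 1938 values stayed called or uncalled as in the main fit, 103 lost and 46 gained a call. Direction was compared there only for genes called in the main fit. Depth limits IM4 and CG15067 in InRCA_noHS, which rest on 1 to 15 reads per library.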
